A study of Homo sapiens with 6 samples.

Results

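This account follows 10 genes of the NRF2 pathway and of glutathione-based defence, SLC7A11, GPX4, GCLC, GCLM, NQO1, TXNRD1, SRXN1, AIFM2, NFE2L2 and KEAP1, taken by gene symbol from a deposited table of 22681 genes. All 10 were in the table and all 10 were among the 14356 genes with enough reads to be tested. The cells were TPC-1-Len, human papillary thyroid carcinoma cells of the established line TPC-1 that had become resistant to lenvatinib, a kinase inhibitor, and were grown in 10 µM of the drug. One group of 3 cultures had been transfected by liposome with a non-targeting short hairpin RNA (shNC) and the other group of 3 with a hairpin against KRT15 (shKRT15). KRT15 encodes a type I keratin. Resistance and the drug were common to both groups, so the comparison is between hairpins and holds no drug-sensitive or drug-free culture. The time from transfection to harvest was not given in the sources used here, and neither was the number of hairpins. The comparison asks which genes differ in resistant cells when KRT15 is knocked down.

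NRF2, the protein of NFE2L2, is a transcription factor that is held at a low level by KEAP1, an adaptor that hands it to a CUL3 ubiquitin ligase. When electrophiles or oxidants modify KEAP1, NRF2 accumulates, pairs with a small MAF protein and binds antioxidant response elements near genes of detoxification and redox defence. SLC7A11 imports cystine, GCLC and GCLM join cysteine to glutamate in the limiting step of glutathione synthesis, and GPX4 uses glutathione to reduce lipid peroxides, which restrains ferroptosis. AIFM2 (also known as FSP1) reduces ubiquinone at membranes and restrains ferroptosis without glutathione. Much of this control acts on protein stability, which read counts do not show.

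Libraries held 36286059 to 36808695 counted reads in shNC and 39868231 to 41343780 in shKRT15, and each member had between 709 and 20579 reads in each library. Levels are given as CPM, a read count relative to the TMM-adjusted library total, and differences as log2 fold changes of shKRT15 over shNC, each with a standard error (SE). A gene was called at a Benjamini-Hochberg adjusted p under 0.05 in edgeR's quasi-likelihood test over all tested genes, and every adjusted p below is from that test unless another setting is named. KRT15 itself had 1040, 1137 and 1284 reads in the shNC libraries and 1024, 1044 and 1005 in the shKRT15 libraries. It fell by 23.4% in CPM, a log2 fold change of −0.38 ± 0.10 (adjusted p = 0.00465). The knockdown was thus modest at the RNA level, and 41.5% of tested genes had a larger absolute fold change. Of the cell type checks, PAX8 (375.3 and 410.4 CPM) was the one abundant thyroid gene, while NKX2-1, TSHR, EPCAM and CDH1 all averaged below 0.05 CPM. Among the 6 epithelial markers KRT18 rose from 115.9 to 214.6 CPM (0.89 ± 0.07, adjusted p = 1.37e-08), KRT7 and KRT8 did not pass, and the list summed to 146.7 to 160.5 CPM in shNC and 247.6 to 259 in shKRT15. Leukocyte markers summed to 207.7 to 209.2 CPM in shNC and 157.8 to 186.1 in shKRT15, with 3 of 4 tested members lower. LAPTM5 (115.8 and 109.6 CPM, not called) and CD68 (87.89 and 59.61 CPM) made up nearly all of that sum. Fibroblast markers summed to 17.78 to 23.53 and 7.942 to 8.841 CPM, with 2 of 3 tested members lower and 1 higher. Of the defining markers, COL1A1 averaged 10.2 CPM in shNC and 3.57 in shKRT15, and PTPRC, CD3E and COL1A2 averaged at most 0.4 CPM in either group. Endothelial markers summed to at most 3.314 CPM. The part of these markers in the results below was not tested. In bulk RNA, fewer cells of a type and less RNA per cell cannot be told apart.

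Among the 10 genes, 2 rose (KEAP1 and AIFM2), 3 fell (NFE2L2, SLC7A11 and GCLC) and 5 did not pass the test (GPX4, GCLM, NQO1, TXNRD1 and SRXN1). Of all tested genes 22.1% were called higher and 23% lower, 45% in all, so 5 called of 10 is close to the background. The median log2 fold change was −0.13 over the 10 genes and 0.00 over all tested genes. The groups did not overlap in CPM for 5 of the 10 (KEAP1 and AIFM2 higher, NFE2L2, GCLC and SRXN1 lower), against 54% of all tested genes (26.9% higher and 27.1% lower). With 3 libraries against 3, a two-sided exact permutation test of 1 gene cannot go below p = 0.1, and it gave p = 0.1 for these 5 genes.

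**Figure D1:**
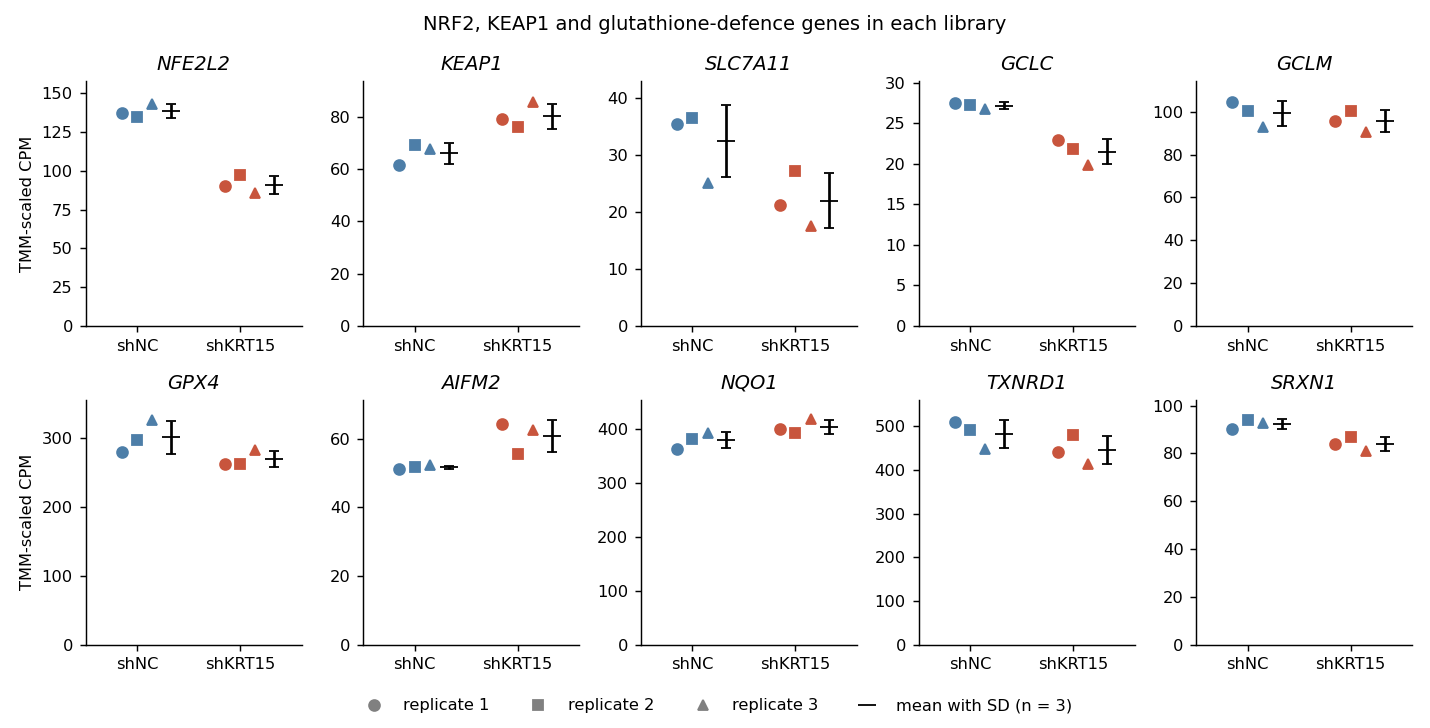
TMM-scaled CPM (vertical axes, starting at 0) of the 10 genes in each library, with 1 point per library (circle, square and triangle for replicates 1, 2 and 3) and the mean with its SD beside each group of 3. NFE2L2 stands at 134.5 to 143.2 CPM in shNC and 85.44 to 96.98 in shKRT15, while the SLC7A11 groups overlap.

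NFE2L2, the gene of NRF2, had the smallest p-value of the 10. It stood at 137.1, 134.5 and 143.2 CPM in the shNC libraries and at 90.17, 96.98 and 85.44 CPM in the shKRT15 libraries. The lowest control library was well above the highest knockdown library. The gene fell by 34.3%, a log2 fold change of −0.61 ± 0.07 (adjusted p = 3.63e-06), and ranked 935 by p-value among all tested genes. NFE2L2 lies on the minus strand of chromosome 2 (GRCh38, 177227595 to 177392697 in GENCODE release 29), and some of its exons overlap on the opposite strand with AGPS, an ether-lipid synthesis gene. The strand setting of the counts is not given in the sources used here. AGPS itself moved the other way, by 0.31 ± 0.08 (adjusted p = 0.00463). A gene that overlaps NFE2L2 on the same strand, LOC100130691, had 379 reads in all 6 libraries.

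KEAP1, the repressor, rose where NFE2L2 fell. Its levels were 61.46, 68.96 and 67.61 CPM in shNC and 78.89, 75.9 and 85.42 CPM in shKRT15, without overlap. The log2 fold change was 0.28 ± 0.08 (adjusted p = 0.00917). Within each library, where scaling plays no part, the ratio of KEAP1 reads to NFE2L2 reads was 0.448, 0.513 and 0.472 in shNC and 0.875, 0.783 and 1.00 in shKRT15. In log2 terms the mean ratio was 0.89 higher in shKRT15, with an SD of 0.10 and 0.18 within the groups. A second fit took out the trend of each library on the GC content and exon length of genes, and values from it are called GC-corrected. The GC-corrected log2 fold change was 0.16 ± 0.06 for KEAP1 (adjusted p = 0.0392) and −0.59 ± 0.06 for NFE2L2 (adjusted p = 6.61e-07).

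SLC7A11, the cystine importer, had nearly as large a difference in its means as NFE2L2 but a much wider spread. The shNC libraries held 35.45, 36.46 and 25.06 CPM and the shKRT15 libraries 21.1, 27.06 and 17.53 CPM. Replicate 3 of shNC lay below replicate 2 of shKRT15, so the groups overlapped. The gene fell by 32.3%, a log2 fold change of −0.56 ± 0.16 (adjusted p = 0.0108). Without replicate 3 of shKRT15 the value was −0.42 and the call was lost (adjusted p = 0.0503). SLC7A11 lies on chromosome 4 (138164097 to 138242349, minus strand), and its antisense gene SLC7A11-AS1 had 8 reads in all 6 libraries.

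The transcript of SLC7A11 has the lowest GC content of the 10 genes, 35.4%, and that property moved with the groups. Over 13667 genes with a known GC content, the Spearman correlation between GC content and a gene's deviation from its mean over the libraries was −0.298, −0.253 and −0.0712 in the shNC libraries and 0.242, −0.0172 and 0.383 in the shKRT15 libraries. Genes at 30.2 to 41.9% GC had a median log2 fold change of −0.20, and those at 56.2 to 74.4% GC had 0.12. The GC-corrected log2 fold change of SLC7A11 was −0.25 ± 0.11 (adjusted p = 0.0632), a smaller value that did not pass. Its corrected levels were 30.3, 32.0 and 24.4 CPM in shNC and 23.4, 27.6 and 21.7 in shKRT15, with the groups still overlapping. Whether the trend is technical or belongs to the knockdown was not tested.

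The 2 subunits of glutamate-cysteine ligase parted. GCLC, the catalytic subunit, stood at 27.5, 27.25 and 26.69 CPM in shNC and at 22.86, 21.78 and 19.78 CPM in shKRT15. It fell by 20.9%, a log2 fold change of −0.34 ± 0.10 (adjusted p = 0.00861), with every knockdown library below every control library. It was called in the same direction in all 17 other settings compared, at −0.38 to −0.28. GCLM, the modifier subunit that raises the enzyme's affinity for glutamate, had 104.5, 100.5 and 93.09 CPM in shNC and 95.54, 100.6 and 90.46 CPM in shKRT15. These overlapped, and the log2 fold change was −0.06 ± 0.08 (adjusted p = 0.577). The number of GCLM reads per GCLC read went from 3.8, 3.69 and 3.49 in shNC to 4.18, 4.62 and 4.57 in shKRT15, also without overlap.

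GCLM was the member whose direction turned with the correction. Its transcript has 37.3% GC, and its GC-corrected levels were 93.4, 90.1 and 86.5 CPM in shNC and 106, 103 and 109 in shKRT15. That is a log2 fold change of 0.23 ± 0.06 (adjusted p = 0.00292), a call in the higher direction. GCLC at 44.3% GC was little moved by the same step, at −0.31 ± 0.08. The log2 fold changes of the 2 subunits lay further apart after the correction than before it.

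**Figure D2:**
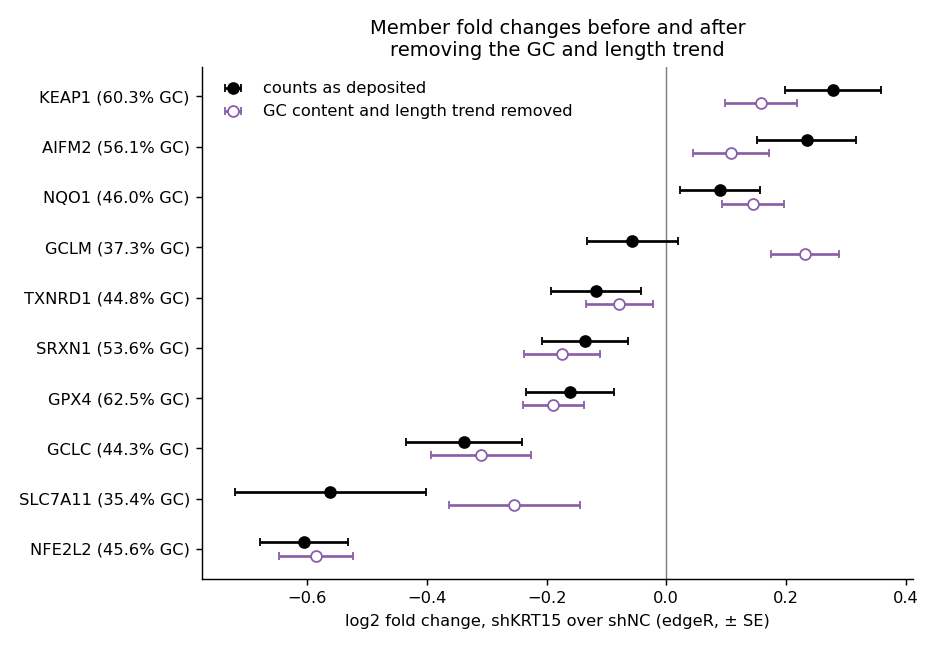
Log2 fold change of shKRT15 over shNC with its SE (horizontal axis) for the 10 genes, sorted by the value from the counts as deposited (filled) and shown again in the GC-corrected fit (open). NFE2L2 and GCLC keep their place, SLC7A11 moves from −0.56 to −0.25, and GCLM crosses 0.

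GPX4 and AIFM2 both restrain ferroptosis, and of these GPX4 did not pass and AIFM2 rose. GPX4, the selenoenzyme that uses glutathione, was at 279.1, 296.6 and 325.5 CPM in shNC and 262, 261.6 and 282.6 CPM in shKRT15. One knockdown library lay above the lowest control, and the log2 fold change was −0.16 ± 0.07 (adjusted p = 0.0851). GPX4 was called lower in the GC-corrected fit (−0.19 ± 0.05, adjusted p = 0.00551) and without replicate 1 of shNC (−0.21, adjusted p = 0.0452). AIFM2 had 51.25, 51.73 and 52.23 CPM in shNC and 64.4, 55.66 and 62.54 CPM in shKRT15. The shNC range was narrower than counting error would usually give. AIFM2 rose by 0.23 ± 0.08 on the log2 scale (adjusted p = 0.0282) with no overlap.

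The call of AIFM2 was the least stable of the 5. It was lost without replicate 1 or 2 of shNC (adjusted p = 0.0601 and 0.0911), without replicate 1 or 3 of shKRT15 (0.14 and 0.0783), and in the GC-corrected fit (0.11 ± 0.06, adjusted p = 0.175). On chromosome 10 (70098223 to 70132934, minus strand) its exons overlap in part with MACROH2A2 on the opposite strand. MACROH2A2 had 2090 reads over all 6 libraries and a log2 fold change of 0.18 ± 0.13 (adjusted p = 0.264), while AIFM2 had at least 1843 reads in each library.

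The 3 classic NRF2 target enzymes NQO1, TXNRD1 and SRXN1 did not pass the test. NQO1, a quinone reductase, had 363.8, 382 and 393.4 CPM in shNC and 400.6, 393 and 418.7 in shKRT15, a log2 fold change of 0.09 ± 0.07 (adjusted p = 0.298). TXNRD1, the cytosolic thioredoxin reductase, had 510, 490.9 and 447.9 CPM against 442, 479.3 and 414.6, a log2 fold change of −0.12 ± 0.08 (adjusted p = 0.223). SRXN1, which repairs over-oxidised peroxiredoxins, had 90.15, 94.17 and 92.58 CPM against 84.14, 87.06 and 80.92, which did not overlap but gave −0.14 ± 0.07 (adjusted p = 0.139). NQO1 thus leaned upward and the other two downward, each by less than 10%. In the GC-corrected fit NQO1 was called higher (0.14 ± 0.05, adjusted p = 0.029) and SRXN1 lower (−0.17 ± 0.06, adjusted p = 0.0322). TXNRD1 was called lower without replicate 3 of shNC (−0.17, adjusted p = 0.0407).

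Some members varied together from library to library. Replicate 3 of shNC had the least SLC7A11, GCLM and TXNRD1 and the most GPX4 and NQO1 of its group. The same held for replicate 3 of shKRT15. Across the 6 libraries the Pearson correlation of log2 CPM with SLC7A11 was 0.96 for TXNRD1, 0.88 for GCLM and −0.92 for NQO1, points that share the group, the library and its GC trend. The 3 genes most like SLC7A11 by this measure among 12420 genes of at least 1 CPM were DDX21 (0.994), GPATCH2L (0.992) and FAM91A1 (0.992), and 5.06% of those genes exceeded 0.9. DDX21, an RNA helicase, fell by 0.25 on the log2 scale (adjusted p = 0.0198), but neither it nor FAM91A1 was called in the GC-corrected fit (adjusted p = 0.266 and 0.695). GPATCH2L (−0.43, adjusted p = 0.0081) kept its call in that fit and lost it without replicate 3 of shKRT15 (adjusted p = 0.0507).

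Levels of different genes can be compared only per length, here as CPM per kilobase of all annotated exons. This scale understates genes whose long isoforms are little used. In shNC the order ran from GPX4 (149 ± 11.6, SD, n = 3) through NQO1 (117 ± 4.59), TXNRD1 (72.0 ± 4.74), SRXN1 (34.2 ± 0.75) and NFE2L2 (23.1 ± 0.752) to GCLM (18.3 ± 1.07) and KEAP1 (17.6 ± 1.06). AIFM2 (10.1 ± 0.0956), SLC7A11 (3.35 ± 0.655) and GCLC (3.14 ± 0.0479) closed it. The ranges of GCLM and KEAP1, and of SLC7A11 and GCLC, overlapped there, and no other neighbours did. In shKRT15 the first 4 places were the same, but NFE2L2 came after KEAP1 and GCLM, at 14.3 to 16.2 per kilobase against 20.2 to 22.7 and 16.7 to 18.6. SLC7A11 and GCLC again overlapped.

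Antioxidant response elements were looked for in RefSeq promoter windows (GRCh38.p14), to show which members hold the letters near a start site. The motif TGACNNNGC was searched on both strands of the 250 bases before each start. Of 35116 windows in the genome 10.9% held it, and of 14 windows of 9 members 5 did, belonging to GCLM, TXNRD1, AIFM2 and KEAP1. Each match follows with 10 bases on either side, 5′ to 3′ on the strand of the gene, with the motif in capitals. Those that read GC first carry it on the opposite strand.
GCLM (chr1:93909446-93909474, minus strand): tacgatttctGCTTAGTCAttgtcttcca
TXNRD1, first start (chr12:104215670-104215698, plus strand): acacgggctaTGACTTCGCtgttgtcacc
TXNRD1, second start (chr12:104286920-104286948, plus strand): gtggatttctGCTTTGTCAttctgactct
AIFM2 (chr10:70132829-70132857, minus strand): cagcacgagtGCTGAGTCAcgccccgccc
KEAP1, second start, upstream match (chr19:10502807-10502835, minus strand): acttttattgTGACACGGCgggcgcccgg
KEAP1, second start, downstream match (chr19:10502784-10502812, minus strand): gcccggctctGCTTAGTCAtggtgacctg

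GCLM and the KEAP1 match nearest its start share the same 9 letters, GCTTAGTCA. Without the GC correction GCLM did not pass the test and KEAP1 rose, and in the GC-corrected fit both were called higher. The AIFM2 match also contains TGANTCA, the letters of an AP-1 site. The 9 letters of the antioxidant response element match lie 22 to 14 bases before the AIFM2 start. Those of GCLM, which hold no TGANTCA, lie 34 to 26 bases before its start. GPX4, GCLC, NQO1, SRXN1 and NFE2L2 had none in these windows, and the well-known element of NQO1 lies further upstream than the window. SLC7A11 was not searched here. Of the other called genes, NFE2L2 and GCLC had no match, AIFM2 had 1 and KEAP1 had 2, while of the uncalled genes GCLM had 1 and TXNRD1 had 2. These calls are from the fit without the GC correction.

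The other genes of the pathway were taken as 11 lists with 213 different genes, of which 183 were tested, 51 rose and 53 fell (56.8% called, against 45% of all genes). Their median log2 fold change was 0.01. By list, the share of tested genes called ran from 37.5% (superoxide and peroxide enzymes) to 72.7% (other NRF2 targets).

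Among the regulators of NRF2, 5 of 18 rose and 7 fell (66.7% called, against 45% of all genes). The small MAF partners fell together with BACH1. MAFF fell from 51.89 to 20.3 CPM (log2 fold change −1.35 ± 0.12, adjusted p = 2.21e-07), MAFG from 131.3 to 73.96 (−0.83 ± 0.07, adjusted p = 5.66e-08) and MAFK from 44.14 to 27.41 (−0.69 ± 0.09, adjusted p = 7.24e-06). These proteins are the partners with which NRF2 binds DNA. BACH1, which competes with NRF2 for the same elements, fell from 52.89 to 27.05 CPM (−0.97 ± 0.11, adjusted p = 2.31e-06). SQSTM1, the autophagy receptor p62 that sequesters KEAP1, fell from 1693 to 798.1 CPM (−1.08 ± 0.07, adjusted p = 2.27e-09). RXRA, a nuclear receptor that can bind NRF2, rose by 0.64 ± 0.07. CREBBP (0.55 ± 0.12), PGAM5 (0.38 ± 0.09), DPP3 (0.36 ± 0.08) and TRIM21 (0.23 ± 0.09, adjusted p = 0.0485) were the others that rose. NFE2L3 (−0.19 ± 0.07) and GSK3B (−0.31 ± 0.09) were the others that fell. CUL3, the ligase scaffold, did not pass (0.08 ± 0.08, adjusted p = 0.416) but was called higher in the GC-corrected fit (0.32, adjusted p = 0.000574).

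**Figure D3:**
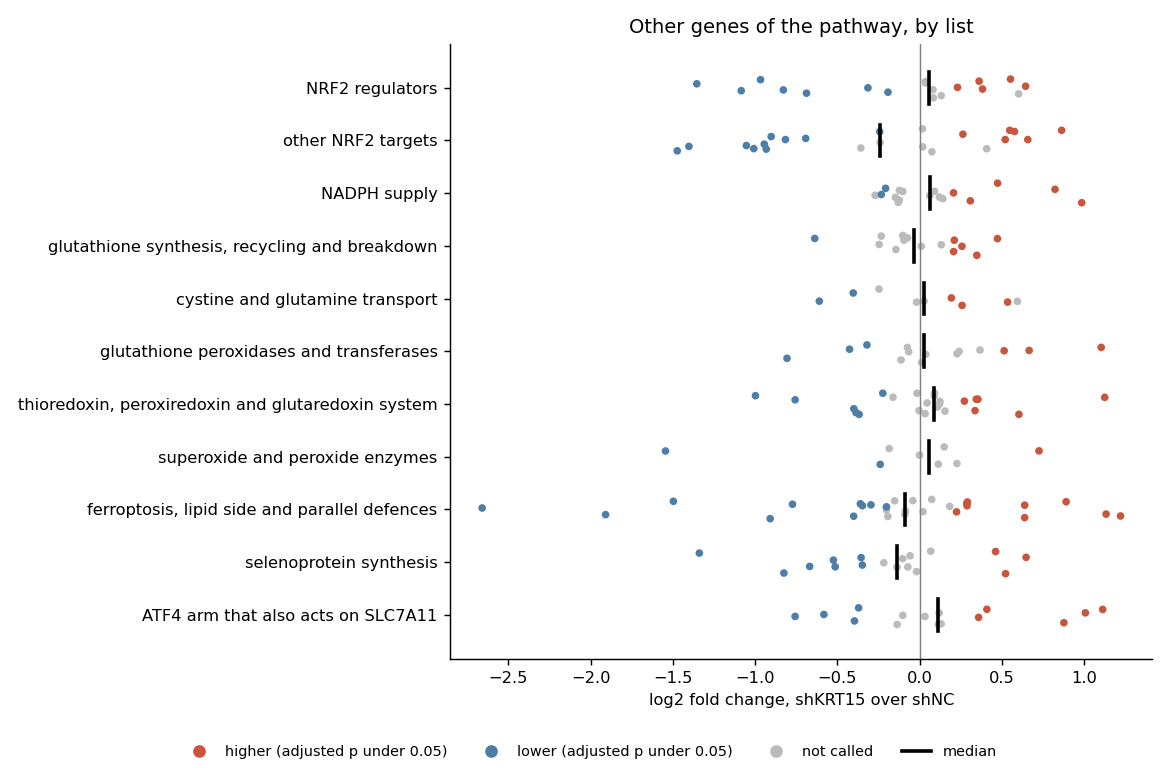
Log2 fold change of shKRT15 over shNC (horizontal axis) for each tested gene of 11 pathway lists, with 1 point per gene coloured by its call and a black bar at the median of the list. Points lie on both sides of 0 in each list, and the median of the other NRF2 targets is −0.24.

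Other NRF2 targets fell more often than they rose, 10 against 6 of 22, at a median of −0.24. That is 72.7% called, against 45% of all genes. HMOX1, haem oxygenase, stood at 112, 116.3 and 113.1 CPM in shNC and 43.23, 43.48 and 42.39 CPM in shKRT15 (−1.40 ± 0.07, adjusted p = 1.18e-10). The ferritin chains FTL (from 4891 to 2431 CPM, −1.01 ± 0.07) and FTH1 (from 8224 to 3963 CPM, −1.05 ± 0.08) fell by a similar amount, and both have many near-identical pseudogenes that can take reads. TRIM16, a ubiquitin ligase, fell by 0.82 on the log2 scale. These 4 differences were larger than any among the 10 members, of which NFE2L2 had the largest. HMOX1 and both ferritin genes are also targets that BACH1 represses. Of the 6 targets that rose, EPHX1 rose by 0.58 ± 0.08 (adjusted p = 2.58e-05) and FECH by 0.52 ± 0.09 (adjusted p = 8.87e-05). Over the 17 other settings the list had 4 to 7 rises and 7 to 10 falls. Without replicate 2 of shKRT15 its median was −0.12, and without replicate 3 of shNC it was −0.16.

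Of 14 tested genes of glutathione synthesis, recycling and breakdown, 5 rose and 1 fell, 42.9% called against 45% of all genes. The split was 3 and 3 in the GC-corrected fit, and 2 rose and 1 fell without replicate 1 or 2 of shNC or replicate 1 of shKRT15. Without replicate 3 of shKRT15, 3 rose and 1 fell, and without its replicate 2, 5 rose and 2 fell. GSS, which adds glycine to complete glutathione, was at 98.55, 95.71 and 102.8 CPM in shNC and 118.4, 117.1 and 119.5 in shKRT15 (0.26 ± 0.07, adjusted p = 0.00588), and its call was lost in the GC-corrected fit (0.13, adjusted p = 0.0589) and without replicate 2 of shNC (0.0516). GSR, which returns oxidised glutathione to its reduced form, rose from 114.4 to 145.6 CPM (0.35 ± 0.07, adjusted p = 0.000791). CTH, which makes cysteine from cystathionine, was the one that fell, from 23.44 to 15.06 CPM (−0.64 ± 0.12, adjusted p = 0.000277). CBS, the enzyme one step before it, rose by 0.47 ± 0.16 (adjusted p = 0.0219), with overlapping groups and no call without replicate 1 of shKRT15 (adjusted p = 0.175) or of shNC (0.0729) or in the GC-corrected fit (0.0674).

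SLC7A11 works as a pair with SLC3A2, the heavy chain it shares with other amino acid transporters. SLC3A2 rose from 204.8 to 234.1 CPM (0.19 ± 0.07, adjusted p = 0.0342), the opposite direction to SLC7A11. The ratio of SLC7A11 to SLC3A2 reads was 0.184, 0.181 and 0.114 in shNC and 0.0908, 0.113 and 0.0764 in shKRT15, and the closest pair of libraries, at 0.114 and 0.113, nearly met. The SLC3A2 call was lost without replicate 1 (adjusted p = 0.0895) or 2 (0.0678) of shKRT15, without replicate 1 (0.125) or 2 (0.14) of shNC, and in the GC-corrected fit (0.07, adjusted p = 0.363). Of 9 tested transport genes 3 rose and 2 fell, 55.6% called against 45% of all genes. SLC1A5, the glutamine importer, rose by 0.26 ± 0.06, and the transporter genes SLC38A2 (−0.40 ± 0.09) and SLC1A1 (−0.61 ± 0.14) fell.

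**Figure D4:**
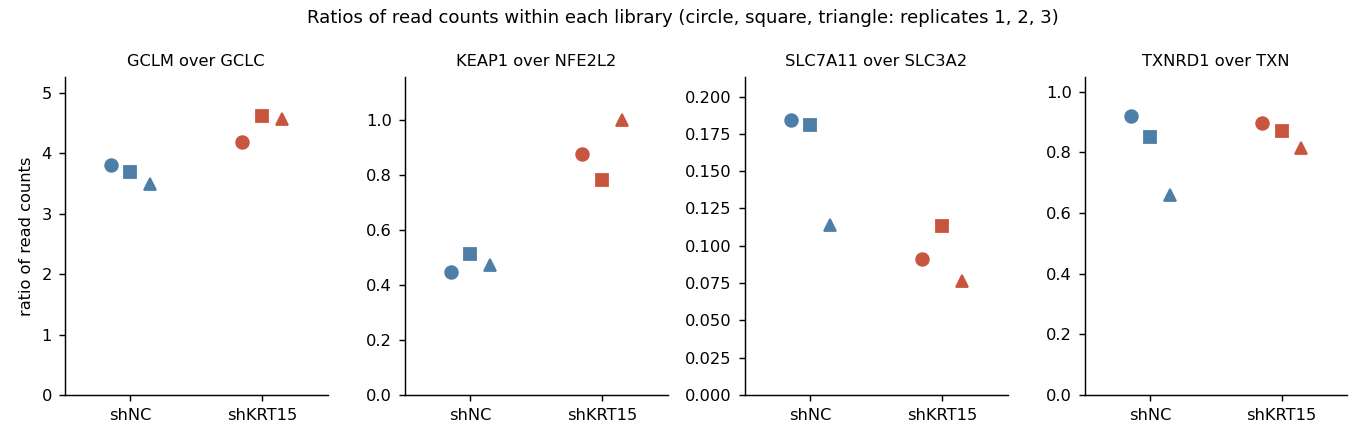
Ratio of the read counts of 2 genes within the same library (vertical axes, starting at 0), with 1 point per library. KEAP1 over NFE2L2 lies at 0.448 to 0.513 in shNC and 0.783 to 1.00 in shKRT15, while TXNRD1 over TXN overlaps between the groups.

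Enzymes that use glutathione or thioredoxin moved both ways. Of 14 peroxidases and transferases 3 rose and 3 fell, 42.9% called against 45% of all genes. GSTO1, a transferase, fell from 289 to 165.3 CPM (−0.81 ± 0.08), and so did GPX8, a peroxidase of the endoplasmic reticulum (−0.43 ± 0.07). GSTM4, at only 3.758 CPM in shNC, rose by 1.10 ± 0.16. In the thioredoxin, peroxiredoxin and glutaredoxin list 6 of 23 rose and 6 fell, 52.2% called against 45% of all genes. For this list 9 rose and 4 fell in the GC-corrected fit, and 6 rose and 3 fell without replicate 1 of shKRT15. TXNIP, which binds and inhibits thioredoxin, rose from 38.73 to 84.49 CPM (1.13 ± 0.08, adjusted p = 6.16e-09). Thioredoxin itself, TXN, fell by 0.22 ± 0.08 (adjusted p = 0.0319), a call lost without replicate 1 (0.177) or 3 (0.084) of shKRT15 or replicate 2 (0.0538) or 3 (0.0995) of shNC, or with total-count scaling (0.122). The GC-corrected value was 0.02 (adjusted p = 0.746). The ratio of TXNRD1 to TXN reads overlapped between the groups, at 0.658 to 0.919 in shNC and 0.814 to 0.897 in shKRT15. PRDX2, a peroxiredoxin, rose by 0.60 ± 0.07, GLRX, a glutaredoxin, fell by 1.00 ± 0.10, and SESN2, a stress-induced sestrin, fell by 0.76 ± 0.07.

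NADPH feeds both GSR and TXNRD1. Of 17 tested genes of its supply 5 rose and 2 fell, 41.2% called against 45% of all genes. Neither fall was called with total-count scaling (7 rises) or without replicate 2 of shNC or replicate 1 or 3 of shKRT15 (4 rises each). IDH2, the mitochondrial isocitrate dehydrogenase, rose from 49.54 to 98.07 CPM (0.99 ± 0.08, adjusted p = 2.46e-08) and MTHFD1, a folate enzyme, from 92.27 to 163.2 CPM (0.82 ± 0.07). Of 8 enzymes of superoxide and peroxide 1 rose and 2 fell, 37.5% called against 45% of all genes. In other settings 1 to 3 rose and 1 to 2 fell, with 3 rises without replicate 3 of shNC and 1 fall without replicate 2 of shNC or replicate 1 or 3 of shKRT15. SOD2, the mitochondrial superoxide dismutase, fell from 5326 to 1825 CPM (−1.54 ± 0.07, adjusted p = 1.48e-11), and CAT, catalase, rose from 48.05 to 79.47 CPM (0.73 ± 0.08). PON2, a paraoxonase, was the other that fell, by 0.24 ± 0.08, and was not called without replicate 1 (adjusted p = 0.0556) or 3 (0.0803) of shKRT15 or replicate 2 of shNC (0.0601), nor with total-count scaling (0.081).

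Among genes of the lipid side of ferroptosis and its parallel defences, 9 of 28 rose and 10 fell. That is 67.9% called, against 45% of all genes. Without replicate 2 of shNC 5 rose and 9 fell. PTGS2, a prostaglandin synthase often read as a ferroptosis marker, fell from 363.5 to 57.53 CPM (−2.66 ± 0.09, adjusted p = 7.33e-13), and SAT1, a polyamine acetyltransferase, from 618.3 to 164.6 CPM (−1.91 ± 0.09). ACSL4, which loads polyunsaturated fatty acids into lipids that can be peroxidised, stood at 425.3, 404.5 and 339.8 CPM in shNC and 305.1, 315.8 and 298.2 in shKRT15 (−0.35 ± 0.08, adjusted p = 0.00194). The groups did not overlap, but the GC-corrected value was −0.07 (adjusted p = 0.415). SC5D, a late enzyme of sterol synthesis, fell by 0.91 ± 0.09. Of the 9 that rose, PEBP1 rose by 0.64 ± 0.07 (adjusted p = 2.07e-06) and COQ8A by 0.64 ± 0.12 (adjusted p = 0.000376).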

How the data were processed

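RNA sequencing libraries of 3 shNC and 3 shKRT15 cultures were compared, grouped by their titles. Per the labels' protocols, RNA came from a TRIzol extraction and mRNA was sequenced by a service provider on an Illumina instrument. The authors deposited raw read counts per gene, with no normalization. Per the submitters' processing notes the build was GRCh38. Aligner, counter, annotation and strandedness were not given in the sources used here. Total counts per library were 36286059 to 41343780. For some members the spread within a group was still below counting error, as for AIFM2 in shNC (SD 0.491 at a mean of 51.74 CPM). The design text calls the cultures biological replicates but does not say that they were transfected separately, so a p-value measures only how these 6 cultures varied, which may be technical. Libraries of 1 group differed by more than sampling noise.

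Counts were fitted with edgeR 4.0.16 in R 4.3.3 (TMM scaling, filterByExpr with minimum count 10 and total 15, robust quasi-likelihood test, group as the only term), with Benjamini-Hochberg adjustment over the 14356 tested genes. The fit was also run on simulated counts with few changed genes and no GC or length trend. That run cannot speak to calls that move with the GC correction. SE is the log2 fold change divided by the root of the F statistic. Exon length, GC content of the longest transcript and positions came from GENCODE release 29 and were found for 95.2% of tested genes. The other settings were edgeR with DESeq2 size factors, upper-quartile or total-count scaling, DESeq2 1.42.0, limma-voom (limma 3.58.1), other filters, a replicate block, protein-coding genes only, a GC-corrected fit (each library's trend on GC content and exon length taken out by spline offsets), and leaving out each library in turn. The members and lists were chosen with earlier results of these data known. The rule named the 10 members, KRT15, the 4 genes with the smallest p of each list, the 3 genes most like SLC7A11, and GSS, GSR, SLC3A2, TXN, HMOX1, FTL, FTH1, ACSL4, TXNIP, BACH1, MAFF, MAFG, MAFK and CUL3. AGPS and MACROH2A2 were added after their overlap was seen. PEBP1, COQ8A, EPHX1, FECH, ATF4, ATF3, DDIT3 and PPP1R15A were added later to show more of their lists. So were CREBBP, PGAM5, DPP3, TRIM21, NFE2L3, GSK3B, DDIT4 and BAP1. Not every gene taken by the rule is reported here.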

Additional observations from a re-analysis of the deposited data

How the results depend on the processing

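Of the 10 members, NFE2L2 (−0.65 to −0.54), GCLC (−0.38 to −0.28) and KEAP1 (0.16 to 0.34) kept their direction and call in all 17 other settings, as did KRT15 (−0.52 to −0.30). Scaling factors, DESeq2, limma-voom, the filters and protein-coding genes only changed no member's call. The replicate block changed none either (2 members higher and 3 lower), and same-numbered libraries did not deviate together (correlations 0.019, −0.0074 and 0.046, not each the highest of its library). Together with the GC correction, the block gave 3 members higher and 5 lower, SLC7A11 among the latter (−0.25, adjusted p = 0.0203, against 0.0632 with the GC correction alone). The GC correction alone gave 3 higher (KEAP1, GCLM and NQO1) and 4 lower (GPX4, GCLC, SRXN1 and NFE2L2). Leaving out 1 library gave 1 to 2 members higher and 2 to 4 lower. GCLM turned to 0.0041 with total-count scaling, 0.2316 with the GC correction and 0.232 with the block as well. With the GC correction TXN turned to 0.023, and to 0.0233 with the block as well; the cause was not tested. Total-count scaling raised the median of all genes by 0.06. Over 62 single genes, 991 of 1054 comparisons kept direction and call, 47 lost the call, 11 gained one and 5 reversed. Low-abundance genes such as GSTM4 rest on fewer reads (128, 132 and 143 in shNC), though the GSTM4 call held in all 17 other settings.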

Other observations

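The last of the lists bear on how these proteins are made and on a second route to SLC7A11. GPX4 and TXNRD1 are selenoproteins, and of 17 tested genes of selenoprotein synthesis and other selenoproteins 3 rose and 7 fell, at a median log2 fold change of −0.14, where 45% of all genes were called. SELENOM, a selenoprotein of the endoplasmic reticulum, fell from 166.2 to 65.69 CPM (−1.34 ± 0.09), SELENOS from 66.78 to 37.69 CPM (−0.83 ± 0.08) and SELENOT from 240.5 to 167.3 CPM (−0.52 ± 0.07). SELENON rose by 0.65 ± 0.09.

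ATF4, a transcription factor of amino acid stress, also acts on SLC7A11. Of 15 genes of that arm and of factors that act on SLC7A11, 5 rose and 4 fell, 60% called against 45% of all genes. ATF4 itself did not pass (−0.14 ± 0.07, adjusted p = 0.12). The serine synthesis enzymes PHGDH (from 112.8 to 244 CPM, 1.11 ± 0.08) and PSAT1 (from 305.2 to 560.4 CPM, 0.88 ± 0.08) rose. DDIT4 (0.36 ± 0.07) and BAP1 (0.41 ± 0.07) were also among the 5 that rose. The 4 that fell were SESN2, ATF3 (−0.40 ± 0.08), DDIT3 (−0.37 ± 0.12) and PPP1R15A (−0.58 ± 0.08).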
